A study of Mus musculus with 28 samples.

Results

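The 5 mouse genes described here are Lrrc27, Gnat3, Cd36, Fhad1 and E230016K23Rik, out of 36806 genes in each of 6 deposited expression tables. They were taken by name and had been chosen by their measured FPKM in these libraries, namely Lrrc27, Gnat3, Fhad1 and E230016K23Rik for a higher level when Wdr82 was depleted, and Cd36 because it lies next to Gnat3. Their ratios between Wdr82-depleted and control cells are therefore a description and carry no test. All 5 symbols had 1 entry in every table, with a status of OK in every library.

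The cells were primary macrophages grown from the bone marrow of FVB/Hsd mice to day 7, infected with a retrovirus and selected with puromycin. Hairpin cells carried the Wdr82 hairpin sh1137, hairpins against Set1a and Set1b together, or a hairpin against Pnuts. Control cells carried the empty vector LMP or a scrambled hairpin. Cells were left untreated or given lipopolysaccharide (LPS, a bacterial cell wall component that activates macrophages) at 10 ng/ml. RNA was either selected for polyA tails or, after 45 min of labelling with 4-thiouridine (4sU), enriched for newly made transcripts.

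The sh1137 hairpin was set against LMP in an unstranded 4sU table of 4 states (untreated, then LPS for 45 min, 2 h or 4 h), in a stranded 4sU table (LPS for 1 h, untreated) and in an unstranded polyA table (LPS for 4 h, untreated). In the fourth table it was set against the scrambled hairpin at 45 min of LPS with DRB, which blocks elongation by RNA polymerase II, and without it. The Set1a and Set1b hairpins and the Pnuts hairpin were each set against the scrambled hairpin in a stranded 4sU table (45 min of LPS and untreated). These make 14 pairs of libraries, 10 of them for Wdr82, and each condition had 1 library. A single hairpin stands for Wdr82 loss, and against LMP the loss of Wdr82 cannot be told apart from carrying any hairpin.

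WDR82 is an adaptor protein that binds RNA polymerase II early in transcription. It is a subunit of the SET1A and SET1B histone H3 lysine 4 methyltransferase complexes, and also of a phosphatase complex built on PNUTS, the product of Ppp1r10, which acts in transcription termination. Gnat3 encodes gustducin, the G protein alpha subunit of taste receptor cells. Cd36 encodes a class B scavenger receptor that takes up fatty acids and oxidised lipoproteins and is abundant in macrophages. Lrrc27 and Fhad1 are named for their leucine-rich repeats and for a forkhead-associated domain, a fold that binds phosphorylated peptides. E230016K23Rik is a RIKEN cDNA gene next to the Ccl6 and Ccl9 chemokine genes.

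All values are FPKM, the deposited expression level scaled to transcript length and to the fragments of the library. Ratios are log2((FPKM + 1)/(FPKM + 1)) of hairpin over control within a table, a scale that understates the change of low genes. A pair counted as 2-fold changed when this ratio was at least 1 or at most -1, the FPKM was at least 1 in either library and the status was OK in both. Between 11533 and 13799 genes reached 1 FPKM per library, 0.696 to 0.758% of genes had a status other than OK, and relative depth within a table differed by 1.59-fold to 3.34-fold. Wdr82 itself was lower with sh1137 in all 10 pairs. The widest difference was 4.03 FPKM with sh1137 against 22.6 FPKM with LMP in polyA RNA after 4 h of LPS, a log2 ratio of -2.23. In the 4sU pairs without DRB the log2 ratio of Wdr82 lay between -0.72 and -1.13, so not every pair reached 2-fold. Ppp1r10 went against the Pnuts label, at 332 and 144 FPKM in the libraries labelled Pnuts hairpin (45 min, untreated) against 203 and 89.5 FPKM in their controls. A higher level was not particular to those libraries, since Ppp1r10 was also 1.65-fold to 3.02-fold higher with sh1137 in the 10 Wdr82 pairs. Setd1a was 13.5 and 14.8 FPKM with the Set1a and Set1b hairpins against 18.1 and 16.1 FPKM in the controls, and Setd1b 6.70 and 11.8 FPKM against 10.5 and 11.3 FPKM. None of these 3 targets was 2-fold lower in its hairpin libraries, which sample newly made RNA.

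The start regions of the genes are shown because the study asks how transcription from regulatory elements is ended early, and start regions rich in CG dinucleotides differ from poor ones in how they are transcribed in both directions. RefSeq (GRCm38.p6, a later build than the mm9 of the expression tables) gives 6 start windows of 300 bases for the 5 genes, each with 250 bases before and 50 bases after the start. CG dinucleotides are in capitals. For Lrrc27, the window with more of them is shown.
Lrrc27, chr7:139213025-139213324, plus strand: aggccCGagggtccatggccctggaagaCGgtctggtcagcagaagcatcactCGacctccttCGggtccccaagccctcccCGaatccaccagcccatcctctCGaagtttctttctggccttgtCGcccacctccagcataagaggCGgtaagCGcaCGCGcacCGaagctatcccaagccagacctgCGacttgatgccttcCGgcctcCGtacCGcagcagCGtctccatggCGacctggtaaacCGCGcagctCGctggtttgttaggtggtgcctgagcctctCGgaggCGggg
Gnat3, chr5:17962320-17962619, plus strand: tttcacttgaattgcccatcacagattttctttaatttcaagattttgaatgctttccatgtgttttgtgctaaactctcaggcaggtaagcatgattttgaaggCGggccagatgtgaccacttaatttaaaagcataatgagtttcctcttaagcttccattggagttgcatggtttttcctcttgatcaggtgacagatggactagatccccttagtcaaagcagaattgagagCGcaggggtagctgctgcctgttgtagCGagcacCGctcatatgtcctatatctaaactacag
Fhad1, chr4:142011602-142011901, minus strand: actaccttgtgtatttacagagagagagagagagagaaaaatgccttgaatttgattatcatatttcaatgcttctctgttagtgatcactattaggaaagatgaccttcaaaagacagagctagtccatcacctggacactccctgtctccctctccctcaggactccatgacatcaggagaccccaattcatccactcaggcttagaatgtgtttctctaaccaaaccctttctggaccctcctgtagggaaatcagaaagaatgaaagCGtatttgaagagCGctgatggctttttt
E230016K23Rik, chr11:83581811-83582110, plus strand: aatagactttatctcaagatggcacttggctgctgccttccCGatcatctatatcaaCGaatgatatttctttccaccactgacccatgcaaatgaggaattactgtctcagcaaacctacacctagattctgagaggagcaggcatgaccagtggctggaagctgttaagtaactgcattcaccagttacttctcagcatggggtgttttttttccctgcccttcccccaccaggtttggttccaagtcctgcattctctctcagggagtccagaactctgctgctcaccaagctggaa
Cd36, chr5:17835847-17836146, minus strand: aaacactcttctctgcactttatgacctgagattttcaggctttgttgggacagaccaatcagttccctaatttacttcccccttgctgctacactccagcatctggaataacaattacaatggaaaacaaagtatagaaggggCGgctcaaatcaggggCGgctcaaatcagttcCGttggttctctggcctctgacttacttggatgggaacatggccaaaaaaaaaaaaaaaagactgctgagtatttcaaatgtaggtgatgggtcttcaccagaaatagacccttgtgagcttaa

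Of the windows shown, that of Lrrc27 held 23 CG dinucleotides at 63.3% GC, and 80.0% of 32851 mouse start windows held no more CG than that. The windows of Gnat3, Cd36, Fhad1 and E230016K23Rik held 4, 3, 2 and 2 CG dinucleotides, against a median of 7 over all windows, so the genes that were higher with sh1137 included both CG-rich and CG-poor starts. TATAAA and TGANTCA, searched on both strands, were in none of the 6 windows and in 13.6% and 7.81% of all windows. GGAAGT, present in 23.8% of all windows on either strand, was in that of Cd36 only among the 6.

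Lrrc27 shares its locus with Stk32c, a kinase gene on the opposite strand, one of whose RefSeq starts lies 32 bases from the CG-rich Lrrc27 start, and the 2 windows overlap by 67 bases. Stk32c stayed below 1 FPKM in all 28 libraries. Gnat3 and Cd36 are transcribed away from each other from starts 126.7 kb apart. E230016K23Rik starts 3.4 kb from Ccl9 and is transcribed away from it, while Ccl6, on the opposite strand, starts 11.0 kb inside the direction of E230016K23Rik transcription. Fhad1 lies on the same strand as Efhd2 and Tmem51, both genes with CG-rich starts. The use of strand in counting is not given in the sources used here, so reads of Lrrc27 and Stk32c, and of E230016K23Rik and Ccl6, may not be separated.

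Lrrc27 (ENSMUSG00000015980, chr7:146289536-146428878 in mm9) was the most abundant of the 4 genes that were higher with sh1137. In unstranded 4sU RNA it stood at 133, 99.7, 61.7 and 35.3 FPKM with sh1137 against 12.8, 8.58, 2.98 and 3.68 FPKM with LMP (untreated, 45 min, 2 h, 4 h). In stranded 4sU RNA it stood at 189 and 216 FPKM with sh1137 against 20.0 and 27.7 FPKM with LMP (1 h, untreated). In the DRB table it stood at 144 and 90.5 FPKM with sh1137 against 14.2 and 6.72 FPKM with the scrambled hairpin (with DRB, without). The lowest sh1137 library, at 35.3 FPKM, was above the highest of all 14 control libraries, at 27.7 FPKM. In polyA RNA Lrrc27 stood at 73.9 and 91.7 FPKM with sh1137 against 2.80 and 7.48 FPKM with LMP (4 h, untreated), at ratios of 19.7-fold and 10.9-fold. The ratio was between 7.57-fold and 19.7-fold, with a median of 10.1-fold over the 10 pairs, and the deposited bounds of the 2 libraries did not overlap in any pair. In untreated stranded 4sU RNA, for example, those bounds were 125 to 308 FPKM with sh1137 and 16.1 to 39.4 FPKM with LMP.

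Gnat3 (ENSMUSG00000028777, chr5:17468438-17525652) was below 1 FPKM in all 14 control libraries. Its level in unstranded 4sU RNA was 9.37, 14.1, 5.32 and 5.96 FPKM with sh1137 against 0.381, 0.774, 0.165 and 0.125 FPKM with LMP (untreated, 45 min, 2 h, 4 h). Stranded 4sU RNA had 12.1 and 20.9 FPKM with sh1137 against 0.961 and 0.628 FPKM with LMP (1 h, untreated). The DRB table had 7.18 and 12.1 FPKM with sh1137 against 0.581 and 0.701 FPKM with the scrambled hairpin (with DRB, without). Every sh1137 library was above every control library, at a lowest value of 4.20 FPKM against a highest of 0.993 FPKM. PolyA RNA had 4.20 and 9.18 FPKM with sh1137 against 0.207 and 0.136 FPKM with LMP (4 h, untreated). The ratio was 4.31-fold to 13.4-fold with a median of 7.08-fold, and the bounds were apart in all 10 pairs.

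E230016K23Rik (ENSMUSG00000051832, chr11:83395557-83437195) was likewise near 0 in control cells. With sh1137 it reached 21.3, 41.7, 8.87 and 20.1 FPKM in unstranded 4sU RNA, against 0.414, 1.14, 0.268 and 1.07 FPKM with LMP (untreated, 45 min, 2 h, 4 h). Its stranded 4sU levels were 14.6 and 17.4 FPKM with sh1137 against 0.0976 and 0.221 FPKM with LMP (1 h, untreated). Its levels in the DRB table were 2.44 and 6.28 FPKM with sh1137 against 0.631 and 0 FPKM with the scrambled hairpin (with DRB, without). The lowest sh1137 library was again above the highest control library, and the smallest ratio, 2.11-fold, belonged to the DRB-treated pair. PolyA RNA held 4.05 and 4.48 FPKM with sh1137 against 0.236 and 0.130 FPKM with LMP (4 h, untreated), lower than most 4sU libraries with sh1137. The median ratio was 8.92-fold, yet the deposited bounds were apart in 2 of the 10 pairs, those of the stranded table.

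Fhad1 (ENSMUSG00000051435, chr4:141441568-141570997) was 12.3, 21.1, 3.32 and 5.33 FPKM with sh1137 in unstranded 4sU RNA, against 1.79, 2.30, 1.43 and 0.415 FPKM with LMP (untreated, 45 min, 2 h, 4 h). The stranded table gave 43.0 and 25.9 FPKM with sh1137 against 2.73 and 3.12 FPKM with LMP (1 h, untreated), and cells given LPS with and without DRB had 18.6 and 19.0 FPKM with sh1137 against 2.26 and 1.24 FPKM with the scrambled hairpin. Its widest difference was at 1 h in stranded RNA (11.8-fold) and its narrowest was at 2 h in unstranded RNA (1.77-fold). In polyA RNA it was only 1.90 and 2.80 FPKM with sh1137 against 0.287 and 0.556 FPKM with LMP (4 h, untreated). Across all libraries the lowest sh1137 value was below the highest control value, so the groups overlapped between tables, though sh1137 was higher within each of the 10 pairs. The deposited bounds were apart in 4 pairs.

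**Figure D1:**
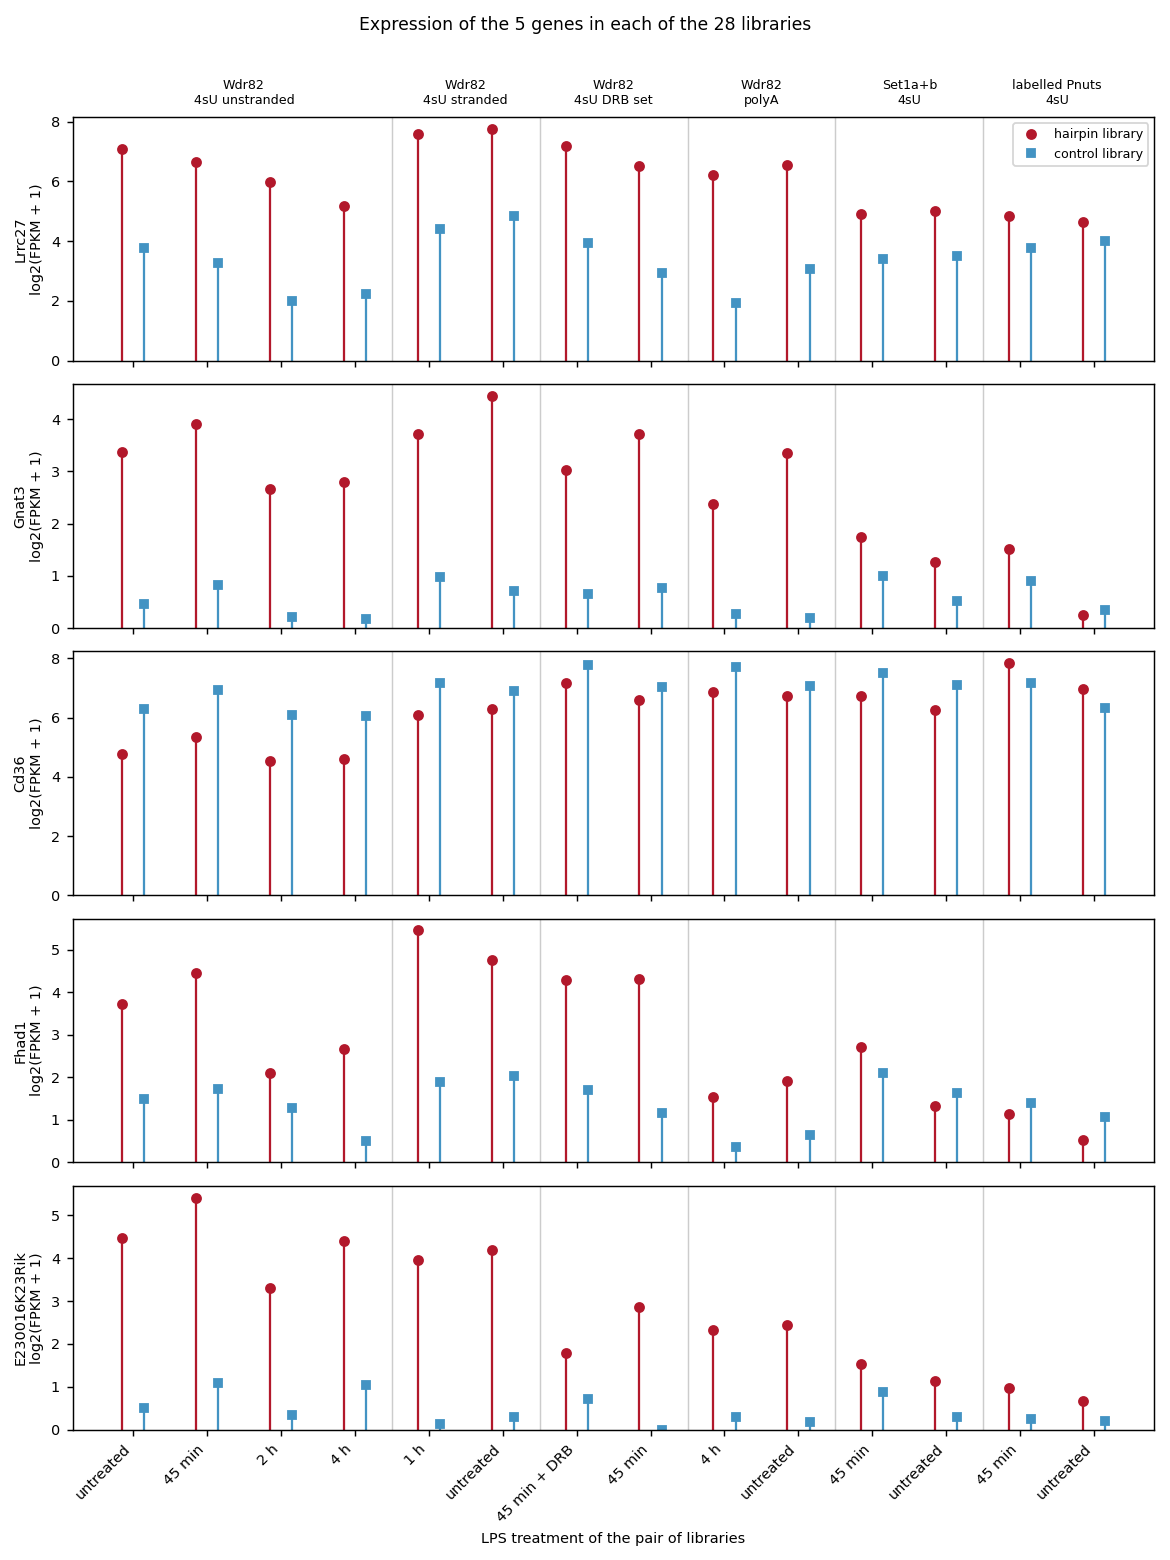
Expression of the 5 genes in each of the 28 libraries, as log2(FPKM + 1), with hairpin libraries as red circles and their controls as blue squares. Lrrc27, Gnat3, Fhad1 and E230016K23Rik were higher with sh1137 in all 10 Wdr82 pairs and Cd36 was lower in all 10. For Lrrc27, Gnat3 and E230016K23Rik the distances were smaller in the Set1a and Set1b pairs and in the pairs labelled Pnuts. For Cd36 the size of those distances lay within the range of the Wdr82 pairs, but in the pairs labelled Pnuts it was higher than in the control.

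Cd36 (ENSMUSG00000002944, chr5:17287507-17394777), 73.7 kb from the Gnat3 locus, went the other way. In unstranded 4sU RNA it was 26.6, 40.0, 22.1 and 23.2 FPKM with sh1137 against 77.5, 122, 66.7 and 65.1 FPKM with LMP (untreated, 45 min, 2 h, 4 h). Stranded 4sU RNA gave 67.2 and 77.3 FPKM with sh1137 against 142 and 118 FPKM with LMP (1 h, untreated), and cells given LPS with and without DRB had 142 and 95.6 FPKM with sh1137 against 220 and 131 FPKM with the scrambled hairpin. PolyA RNA gave 117 and 107 FPKM with sh1137 against 208 and 132 FPKM with LMP (4 h, untreated). Cd36 was thus lower with sh1137 in every pair, by 2.73-fold to 3.01-fold in unstranded 4sU RNA and by less elsewhere, and its deposited bounds overlapped in all 10 pairs. The median log2 ratio was -0.95, with a range from -1.59 to -0.31. In such bulk RNA, fewer cells of a type and less RNA per cell cannot be told apart.

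Counted over the 10 Wdr82 pairs, Lrrc27, Gnat3 and E230016K23Rik were at least 2-fold higher in 10, Fhad1 in 9 and Cd36 in none. Among 10328 genes tested in all 10 pairs, 32 (0.310%) were at least 2-fold higher in all of them, and of 11107 genes tested in at least 9 pairs 60 (0.540%) were so in at least 9. Ranked by median ratio among those 32 genes, Lrrc27 was the second, E230016K23Rik the fourth and Gnat3 the fifth. That order holds for the log2(FPKM + 1) scale, which shrinks the ratios of genes near 0 in control cells. As plain FPKM ratios, Gnat3 was 12.4-fold to 67.4-fold higher and Lrrc27 7.80-fold to 26.4-fold higher, and E230016K23Rik was 3.86-fold to 150-fold higher in the 9 pairs whose control was above 0. Cd36 was at least 2-fold lower in 5 pairs and below a ratio of 0 in all 10. Of all genes tested in all 10 pairs, 0.445% were at least 2-fold lower in at least 5 and 4.85% were below 0 in all 10. Since these contrasts chose the genes, the shares place them and test nothing. In the 4 stranded pairs alone, Lrrc27, Gnat3, Fhad1 and E230016K23Rik were at least 2-fold higher in all 4, with median log2 ratios of 3.22, 2.84, 2.94 and 3.35.

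**Figure D2:**
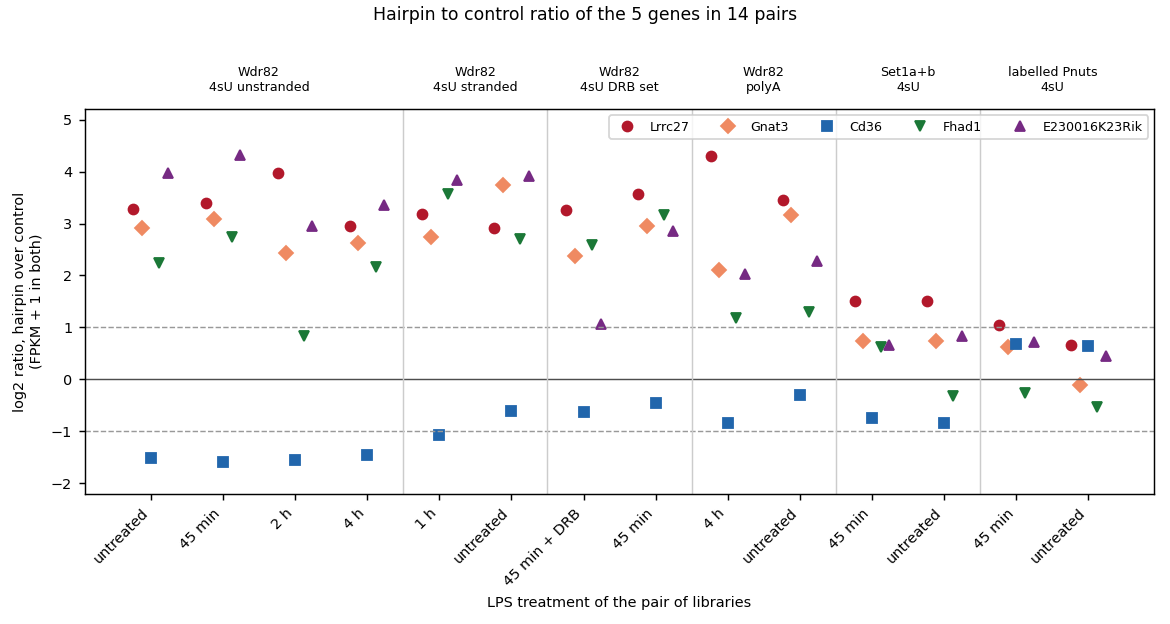
The log2 ratio of hairpin over control for the 5 genes in each of the 14 pairs, with dashed lines at 2-fold. Cd36 (blue squares) is below 0 in the 10 Wdr82 pairs and both Set1a and Set1b pairs and above 0 in both pairs labelled Pnuts, and Lrrc27 (red circles) is above 0 in all 14.

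Over the LPS course of the unstranded 4sU table, Lrrc27 was lower at every LPS time than in untreated cells, with log2 ratios to untreated cells of -0.41, -1.10 and -1.88 with sh1137 and of -0.52, -1.79 and -1.56 with LMP (45 min, 2 h, 4 h). Gnat3, Cd36, Fhad1 and E230016K23Rik were all highest at 45 min with sh1137, at log2 ratios to untreated cells of 0.54, 0.57, 0.73 and 0.94, and lowest at 2 h. With LMP these 4 genes were also highest at 45 min, at ratios of 0.36, 0.65, 0.24 and 0.60. Of these, Gnat3 stayed below 1 FPKM with LMP, and Fhad1 and E230016K23Rik were no higher than 2.30 and 1.14 FPKM. These ratios share the untreated library of each kind of cell and each rests on 1 library, so none was tested.

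**Figure D3:**
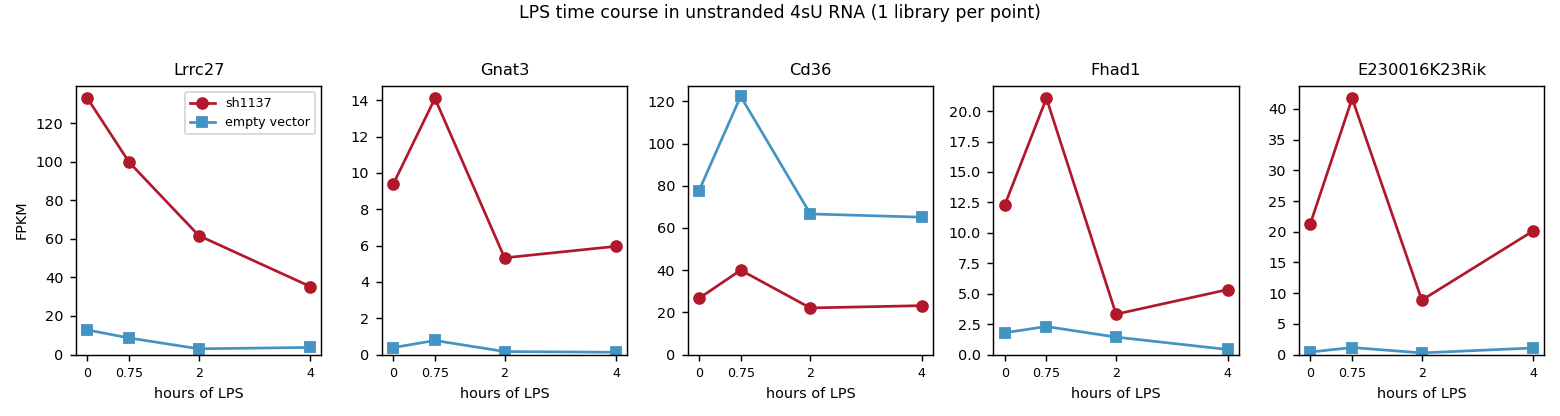
FPKM of the 5 genes over hours of LPS in unstranded 4sU RNA, with sh1137 in red and the empty vector in blue, 1 library per point. Lrrc27 is highest in untreated cells and the other 4 genes peak at 45 min (0.75 h) with either vector, and the curves of the 2 vectors do not cross for any gene.

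In the DRB table, all 5 genes were measured in 4sU RNA of DRB-treated cells. With sh1137, cells with DRB had log2 ratios to cells without DRB of 0.67 for Lrrc27, 0.57 for Cd36, -0.03 for Fhad1, -0.68 for Gnat3 and -1.08 for E230016K23Rik. With the scrambled hairpin the ratios were 0.97 for Lrrc27, 0.74 for Cd36 and 0.54 for Fhad1. Gnat3 and E230016K23Rik had less than 1 FPKM in both scrambled libraries, so no DRB ratio is read there. FPKM is scaled to the fragments of each library, so a DRB ratio above 0 is a larger share and not a measured rise in new RNA. In the same sh1137 libraries, Efhd2 was 185 FPKM with DRB and 98.5 FPKM without, and Ppp1r10 was 23.2 FPKM with DRB and 264 FPKM without.

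The Set1a and Set1b hairpins and the hairpin labelled Pnuts ask whether the same genes move when the partners of WDR82 are targeted, in libraries that did not choose them. Lrrc27 was 28.7 and 31.0 FPKM with the Set1a and Set1b hairpins against 9.50 and 10.2 FPKM with the scrambled hairpin (45 min, untreated). That is 2.83-fold and 2.86-fold, with deposited bounds apart in both pairs, and 1.10% of 12558 genes were at least 2-fold higher in both. Gnat3 was 2.35 and 1.39 FPKM against 0.993 and 0.439 FPKM, and E230016K23Rik 1.91 and 1.19 FPKM against 0.841 and 0.233 FPKM. Both were thus higher in both pairs without reaching 2-fold on the log2(FPKM + 1) scale. Cd36 was 106 and 75.6 FPKM against 180 and 137 FPKM, and Fhad1, 5.61 and 1.51 FPKM against 3.30 and 2.12 FPKM, differed in direction between the pairs.

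In a limma fit over both Set1a and Set1b pairs, with Benjamini-Hochberg adjustment over 12558 genes, none of the 5 passed an adjusted p of 0.05. The mean log2 ratio was 1.51 for Lrrc27 (SE 0.087, adjusted p = 0.121), 0.74 for Gnat3 (adjusted p = 0.121) and 0.74 for E230016K23Rik (adjusted p = 0.129). It was -0.80 for Cd36 (adjusted p = 0.121) and 0.15 for Fhad1 (adjusted p = 0.773). Gnat3 and E230016K23Rik were below 1 FPKM in both scrambled libraries and met the filter only through the hairpin libraries. For these 2 genes the fit is therefore no independent support for a higher level. That fit called 10 genes (0.0796%) in all, with 3033 genes at an unadjusted p under 0.05.

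In the libraries labelled Pnuts hairpin, whose Ppp1r10 level goes against that label, Lrrc27 was 27.4 and 24.2 FPKM against 12.8 and 14.9 FPKM with the scrambled hairpin (45 min, untreated). Cd36 was 229 and 124 FPKM there against 142 and 78.9 FPKM, the only pairs in which it was higher than in the control. Fhad1 was 1.20 and 0.448 FPKM against 1.64 and 1.09 FPKM. Gnat3 was 1.87 and 0.186 FPKM against 0.873 and 0.278 FPKM, and E230016K23Rik, at 0.953 and 0.580 FPKM against 0.186 and 0.159 FPKM, stayed below the filter. The limma fit over both pairs called 17 of 12540 genes (0.136%) and none of the 3 genes it could test, with mean log2 ratios of 0.86 for Lrrc27 (adjusted p = 0.0994), 0.67 for Cd36 (adjusted p = 0.101) and -0.40 for Fhad1 (adjusted p = 0.187).

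The adjacent genes were compared to see how far along the chromosome the differences reached. The neighbours were the genes that share a locus with one of the 5 and the 3 nearest on each side within 500 kb that reached 1 FPKM in any library, 21 in all besides the 5. In a limma fit over the 4 pairs of the unstranded table, 2 of 15 tested neighbours rose and none fell, which is 13.3% against 18.4% of all 12377 genes tested. The median log2 ratio was 0.01 for those 15 and -0.01 for all genes. In the stranded table, 3 of 18 tested neighbours rose and none fell (Ccl6, Rpl9-ps1 and Gm13053), or 16.7% against 4.21% of all 13006 genes tested, and none of them passed with the wider gene filter that counts a gene at 1 FPKM in any pair. Gm13053 (0.739 and 0.637 FPKM with LMP) and Rpl9-ps1 (0.513 and 0.224 FPKM) met the filter there only through their sh1137 libraries (1 h, untreated). Their calls are therefore a description and not independent support. Ccl6 was the only neighbour called in the DRB table (1 of 14 tested, 7.14% against 0.464% of all genes) and in the table labelled Pnuts (1 of 15, 6.67% against 0.136%). None of 13 passed in polyA RNA and none of 15 with the Set1a and Set1b hairpins. With at most 3 calls in a table, these shares are too coarse to be read as below or above the background.

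Ccl6, a chemokine gene that shares its locus with E230016K23Rik, was the neighbour with the most regular change. It was 90.0, 135, 85.0 and 97.3 FPKM with sh1137 in unstranded 4sU RNA against 29.2, 48.1, 32.8 and 34.7 FPKM with LMP (untreated, 45 min, 2 h, 4 h), and it rose by a mean log2 ratio of 1.47 (limma, adjusted p = 0.00264). In the stranded table it was 106 and 142 FPKM against 28.1 and 30.8 FPKM, and it rose by 2.02 on the log2 scale (limma, adjusted p = 0.0279, 4.21% of all genes called). In the DRB table it rose by 1.94 (limma, adjusted p = 0.0362, 0.464% called). In polyA RNA Ccl6 was 233 and 208 FPKM with sh1137 against 269 and 206 FPKM with LMP (4 h, untreated), a mean log2 ratio of -0.10 (limma, adjusted p = 0.727, 0.861% called). The difference in Ccl6 was thus seen in newly made RNA and not in polyA RNA, while E230016K23Rik was higher in both; the difference between the RNA types was not tested.

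Ccl6 also stood higher in both other sets of hairpins. It was 676 and 521 FPKM with the Set1a and Set1b hairpins against 148 and 98.7 FPKM (mean log2 ratio 2.28; limma, adjusted p = 0.106). In the libraries labelled Pnuts hairpin it was 571 and 322 FPKM against 78.4 and 43.6 FPKM, and it rose by 2.85 on the log2 scale (limma, adjusted p = 0.0412). The unstranded call held in all 10 alternative settings. The calls in the stranded, DRB and Pnuts tables were lost, at adjusted p up to 0.375, 0.694 and 0.291, in 3 of 6, 3 of 6 and 4 of 6 settings, among them the wider gene filter.

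The other chemokine genes at that site did not pass the test in any table. Ccl9, at a gap of 3.4 kb and transcribed away from E230016K23Rik, had a mean log2 ratio of 0.16 in unstranded 4sU RNA (limma, adjusted p = 0.698). Ccl3 (0.30, adjusted p = 0.384), Ccl4 (0.12, adjusted p = 0.657) and Ccl5 (0.00, adjusted p = 0.998), all LPS-induced chemokine genes, did not pass the limma test either. These means cover ratios of both signs, for Ccl9 0.69, 0.74, -0.09 and -0.71 and for Ccl3 0.98, 0.53, -0.02 and -0.30 (untreated, 45 min, 2 h, 4 h). In the stranded table the mean log2 ratios were above 0, at 1.19 for Ccl3 (limma, adjusted p = 0.0551), 0.84 for Ccl9 (limma, adjusted p = 0.108) and 0.84 for Ccl4 (limma, adjusted p = 0.155). The DRB table gave 0.77 for Ccl3 (limma, adjusted p = 0.193), 0.93 for Ccl9 (limma, adjusted p = 0.146) and 0.34 for Ccl4 (limma, adjusted p = 0.431). Rpl9-ps1, a ribosomal protein pseudogene 21.4 kb away, was 2.14, 21.2, 5.72 and 22.4 FPKM with sh1137 against 0.423, 1.53, 0.458 and 0.700 FPKM with LMP, and it rose by 2.57 on the log2 scale (limma, adjusted p = 0.0183). Its reads may be shared with copies of Rpl9, and this call held in 6 of 9 alternative settings. In the untreated, 2 h and 4 h pairs Rpl9-ps1 met the filter only through its sh1137 library. Gm11435, 59.9 kb from the E230016K23Rik locus, was 7.34 and 44.1 FPKM with sh1137 against 1.52 and 10.7 FPKM with LMP in unstranded 4sU RNA (2 h, 4 h). In polyA RNA after 4 h it was 7.93 FPKM against 2.59 FPKM. Gm11435 was below 1 FPKM in untreated cells and at 45 min, missed the filter and was not tested.

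Around Lrrc27, none of the neighbours passed the limma test in the unstranded table. Pwwp2b, 5.5 kb from the locus, had a mean log2 ratio of -0.29 (limma, adjusted p = 0.117), and Inpp5a, a phosphatase gene acting on inositol phosphates, had 0.54 (limma, adjusted p = 0.0509). Beside Cd36 and Gnat3, Sema3c, a semaphorin gene 51.4 kb from Cd36, was 1.48, 1.59, 0.858 and 1.86 FPKM with sh1137 against 1.01, 2.12, 1.14 and 2.56 FPKM with LMP (mean log2 ratio -0.12; limma, adjusted p = 0.540). Its mean log2 ratio was further below 0 in the other 4 tables that could test it, at -0.73 in the stranded table (limma, adjusted p = 0.0830), -0.63 in the DRB table (limma, adjusted p = 0.366), -0.84 with the Set1a and Set1b hairpins (limma, adjusted p = 0.135) and -0.76 in the table labelled Pnuts (limma, adjusted p = 0.104). Gnat3 and Cd36 themselves thus differed in opposite directions across a gap of 73.7 kb that holds no other gene reaching 1 FPKM.

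Around Fhad1, Efhd2, a calcium-binding protein gene 10.7 kb away, had a mean log2 ratio of -0.31 in the unstranded table (limma, adjusted p = 0.0576), and the apoptosis protease gene Casp9 had -0.16 (limma, adjusted p = 0.268). Gm13643, within the Fhad1 locus, was 1.31, 2.57, 0.157 and 0.507 FPKM with sh1137 against 0, 0.320, 0.478 and 0.181 FPKM with LMP, too low to test. Gm10565 was 2.06, 2.04, 0.871 and 2.02 FPKM against 0.883, 0.153, 0.231 and 0.497 FPKM, and it too missed the filter there. In the stranded table Gm10565 had a mean log2 ratio of 0.65 (limma, adjusted p = 0.0883). 4930455G09Rik, 2.8 kb from the Fhad1 locus, had 1.08 in the stranded table (limma, adjusted p = 0.0654). Both met the filter in the stranded table only through their sh1137 libraries. In unstranded 4sU RNA 4930455G09Rik was lower with sh1137 in untreated cells, at 2 h and at 4 h. Gm13053, 15.9 kb from the Fhad1 locus, was 5.18 and 6.23 FPKM with sh1137 against 0.739 and 0.637 FPKM with LMP in the stranded table, where it rose by 1.99 on the log2 scale (limma, adjusted p = 0.0281). That call held in 3 of 6 alternative settings, and Gm13053 met the filter there only through its sh1137 libraries.

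**Figure D4:**
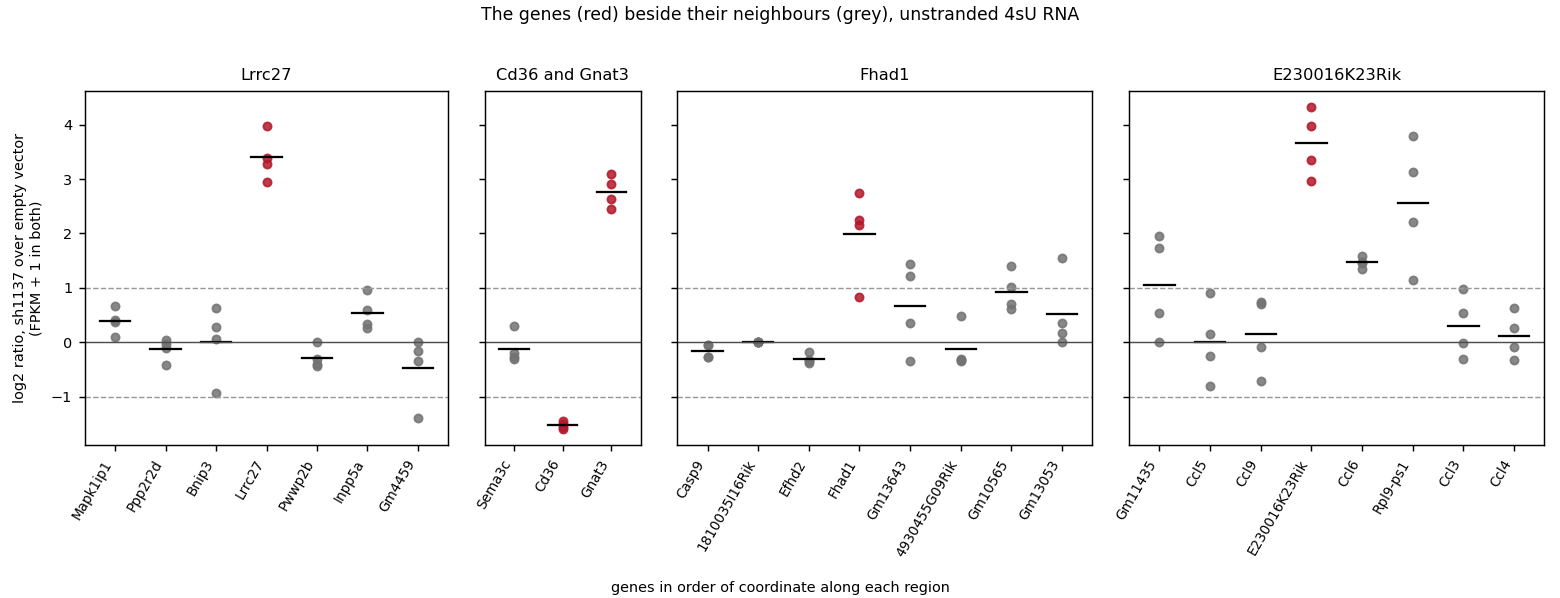
The log2 ratio of sh1137 over LMP in unstranded 4sU RNA for the 5 genes (red) and their neighbours (grey), in order of coordinate, with 4 points per gene (untreated and 3 LPS times) and a bar at their mean. Most neighbours lie near 0 while Ccl6 and Rpl9-ps1 lie above the upper dashed line (2-fold) in all 4 pairs. Mapk1ip1, Inpp5a and Gm10565 are also above 0 in all 4, and Gm11435 is above that line at 2 h and 4 h.

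The genes whose 14 ratios correlated most closely with those of the 5 were sought among 2356 or 2357 genes tested in every pair with at least one 2-fold ratio, by Pearson's r over the 14 pairs. Pairs of a table share the kind of RNA and the control vector, so r is a description. It follows the pattern of the ratios across pairs and not their size or sign. Nearest to Lrrc27 were Btbd19 (r = 0.93), Isyna1 (r = 0.92), which encodes inositol-3-phosphate synthase, and the neutrophil collagenase gene Mmp8 (r = 0.89). Nearest to Gnat3 were Mmp8 (r = 0.95), the complement receptor gene Gpr77 (r = 0.93) and A230028O05Rik (r = 0.93). A230028O05Rik was also nearest to E230016K23Rik (r = 0.92), ahead of Adssl1 and Gm13657 (r = 0.90 for each). Nearest to Fhad1 were Anxa9 (r = 0.93), Gngt2 (r = 0.90) and Gm12589 (r = 0.87), and nearest to Cd36 were Esyt1 (r = 0.94), the chemokine receptor gene Ccr1 (r = 0.91) and the asparagine synthetase gene Asns (r = 0.88). Not all of these genes moved as far or in the same direction. Isyna1 had a median log2 ratio of 0.25 in the Wdr82 pairs, -0.53 in the Set1a and Set1b pairs and -1.22 in the pairs labelled Pnuts, whereas Lrrc27 was above 0 in all 14. Ccr1 had medians of 0.15, 0.42 and 1.12 there, so that, unlike Cd36, it was not lower with sh1137. Among the 5 themselves, r was highest between Gnat3 and E230016K23Rik (0.86) and lowest between Cd36 and E230016K23Rik (-0.69).

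Genes related to the 5 by family or pathway were read in the same limma fit of the unstranded table, which called 18.4% of all genes tested, so that a list with about that share of calls is near the background. Of 15 other G protein alpha subunit genes, 8 were tested, 2 rose and none fell, with a median log2 ratio of 0.22 against -0.01 over all genes. The 2 were Gnas, for the stimulatory subunit (mean log2 ratio 0.49; limma, adjusted p = 0.0218), and Gnaq (0.42; limma, adjusted p = 0.0410). Of 11 taste signalling partners in the table, 4 were tested, none rose and 1 fell, namely the phospholipase gene Plcb2, by 0.84 on the log2 scale (limma, adjusted p = 0.00731). Of 25 Lrrc genes with leucine-rich repeats, 19 were tested, none rose and 1, Lrrc59, fell. Of 21 other genes with forkhead-associated domains, all were tested, 2 rose and 1 fell, among them Tifa, an adaptor in innate immune signalling, with a mean log2 ratio of 0.85 (limma, adjusted p = 0.0195). None of the tested genes of these 4 lists passed in the other 5 tables.

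For Cd36, 2 lists were read in the same way. Of 15 tested genes for fatty acid uptake and PPARG targets, 5 rose and 3 fell, against 18.4% of all genes called in either direction, with a median log2 ratio of -0.08. Fabp5, a fatty acid carrier, rose by 1.09 (limma, adjusted p = 0.00758), while Slc27a1, a fatty acid transporter, fell by 0.67 on the log2 scale (limma, adjusted p = 0.0107). Plin2, which coats lipid droplets, had a mean log2 ratio of -0.29 (limma, adjusted p = 0.0681). Of 13 tested genes for partners of CD36 and other scavenger receptors, 1 rose and 3 fell. Cd68 fell by 0.65 on the log2 scale (limma, adjusted p = 0.0127) and Msr1 had 0.02 (limma, adjusted p = 0.919). Of the 15 fatty acid genes, 3 rose in the stranded table, and none of either list passed in the remaining tables.

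Macrophage markers were abundant in every library group, with 9 of the 10 listed symbols in the tables. Csf1r was 169 FPKM with sh1137 and 205 FPKM with LMP in untreated unstranded 4sU RNA, and 1 of the 9 markers rose (Mertk) and 4 fell (Csf1r, Cd68, Fcgr1 and Cd14) in the limma fit of that table, which called 18.4% of all genes. In polyA RNA 2 of 8 fell (Csf1r and Fcgr1, 0.861% of all genes called), and none of the 9 passed in the other 4 tables. Cd36 is also known from platelets, endothelium and adipocytes. The summed level of 6 platelet and megakaryocyte markers was 110 to 169 FPKM with sh1137 and 58.0 to 113 FPKM with LMP in unstranded 4sU RNA. Both of its tested genes rose, namely Pf4 (mean log2 ratio 0.72; limma, adjusted p = 0.0328) and Ppbp (1.71; limma, adjusted p = 0.00264), while Gp9 was at 0 in 23 of 28 libraries. Of 6 endothelial markers, summed at 9.68 to 49.3 FPKM with sh1137 and 3.73 to 29.2 FPKM with LMP, Pecam1 rose by 2.20 (limma, adjusted p = 0.00366). Kdr, the other one tested, had a mean log2 ratio of -0.29 (limma, adjusted p = 0.378), while Cldn5 and Emcn were each at 0 in 27 libraries. Pf4, Ppbp, Pecam1 and Cdh5 rose in the stranded table, Pecam1 in the DRB table and Ppbp in polyA RNA. In untreated unstranded 4sU RNA, Ppbp was 2.75 FPKM with sh1137 against 0.0938 FPKM with LMP, and Pecam1 5.09 against 0.483 FPKM. Both met the filter in that pair only through the sh1137 library. The calls of Ppbp and Pecam1 are therefore a description and not independent support. Cdh5 was also near 0 with LMP in that pair, at 0.134 FPKM. The part of these markers in the levels of the 5 genes was not tested. Of the neutrophil, dendritic, lymphocyte and erythroid markers, 6, 0, 1 and 1 were tested there and none passed, and no adipocyte, stromal or mast cell marker reached the filter in all 4 pairs. Elsewhere the neutrophil gelatinase gene Mmp9 rose by 2.07 in the stranded table (limma, adjusted p = 0.0281) and by 3.36 in the table labelled Pnuts (limma, adjusted p = 0.0308). The other neutrophil markers tested in the table labelled Pnuts were all below 0, namely Mpo (-1.10), S100a8 (-1.39), S100a9 (-1.12), Camp (-0.77) and Ngp (-1.25). In the stranded table the others ran from -0.55 (Camp) to 0.70 (Mpo). None of these others passed in either table. Ighm, the immunoglobulin mu chain gene, rose by 1.20 in the stranded table (limma, adjusted p = 0.0449) and fell by 1.48 in polyA RNA (limma, adjusted p = 0.0459).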

How the data were processed

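Per the file headers, the authors deposited FPKM values, each with confidence bounds and a status. Per the submitters' processing notes, TopHat 1.3.1, Cufflinks 2.1.1 and Cuffdiff 2.1.1 were used with mm9. No source used here states the annotation, the strand setting, how libraries were scaled or what level the bounds have. Read counts are not part of these tables, so depth is known only relative to the other libraries of a table and counting intervals were not computed. All per-sample value columns were used (0 left out). With 1 library per condition, no single pair was tested. For each table, limma 3.58.1 (R 4.3.3) fitted the log2 ratios of its pairs against 0, with the treatments as the only repeats and Benjamini-Hochberg adjustment over all genes with an FPKM of at least 1 in every pair. This filter, rather than 1 FPKM in any pair, was settled after the counts of both had been seen. The p-values measure the spread between treatments, not between cultures, and with 2 pairs there is 1 residual degree of freedom. The fit was tested on simulated data.

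The 5 genes, the lists and the tests were chosen with earlier results of these data known. Named are the 5 genes, the neighbours described above, the targeted genes, the 3 genes most like each of the 5, and up to 4 genes of each list by mean FPKM; further markers were named after their values were seen. Symbols present more than once were taken from the entry with the highest mean FPKM. Alternatives were pseudocounts of 0.1 and 5, an FPKM of at least 5 or none, centring on the median, each pair of the unstranded table left out, and the deposited bounds.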

Additional observations from a re-analysis of the deposited data

Results flagged for a closer look

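Cd36 was lower with sh1137 in all 10 Wdr82 pairs and higher in both pairs labelled Pnuts hairpin, and the median log2 ratio of the pairs labelled Pnuts minus that of the Wdr82 pairs was 1.61. Fhad1 went the other way, higher in all 10 Wdr82 pairs and lower in both pairs labelled Pnuts, with a difference of -2.81 in the same sense, although its level in the 4 libraries of the table labelled Pnuts was at most 1.64 FPKM. Neither difference was tested, the pairs come from different tables with different controls, and Ppp1r10 was not lower in the libraries labelled Pnuts hairpin.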

How the results depend on the processing

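With pseudocounts of 0.1 or 5, an FPKM of at least 5, no filter or centring on the median, the number of 2-fold changed Wdr82 pairs per gene stayed within 1.5 times its value. A pseudocount of 5 nonetheless took the number from 10 to 8 for Gnat3, from 9 to 6 for Fhad1 and from 10 to 7 for E230016K23Rik. An FPKM of at least 5 left 9, 7 and 7 for these genes, and a pseudocount of 0.1 gave 10 for Fhad1. With deposited bounds that do not overlap as the rule, the number was 0 for Cd36, 4 for Fhad1 and 2 for E230016K23Rik. The limma counts over all genes were far less stable. In the unstranded set of pairs, 2280 calls became 79 without a filter, 1116 with 1 FPKM in any pair (a filter added after seeing the data) and 416 to 1249 with a pair left out (613 without untreated, 416 without 45 min, 586 without 2 h, 1249 without 4 h). Its 2 called neighbours became 4 with a pseudocount of 5, 3 with the filter in any pair, 1 with no filter and 1 to 2 with a pair left out. The stranded table went from 547 calls to 128 (pseudocount 0.1), 1118 (pseudocount 5), 881 (FPKM of at least 5) and 118 (centred). The DRB table went from 56 to 12 (pseudocount 0.1) and 111 (centred), the polyA table from 98 to 0 (pseudocount 5) and 54 (centred), the Set1a and Set1b table from 10 to 22 (pseudocount 0.1) and 21 (FPKM of at least 5), and the Pnuts table from 17 to 37 (pseudocount 5) and 58 (FPKM of at least 5). Each of these 5 tables gave 0 calls without a filter and 0 with the filter in any pair. The cause was not tested. The tables of 2 pairs were not fitted with a pair left out, since no residual degree of freedom would remain. Every fit already pairs hairpin and control libraries by treatment, and no further fit with a replicate block could be made because the labels give no replicate numbers. Gnat3 and E230016K23Rik lie below 1 FPKM in most control libraries, and the part of depth in their values was not tested.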
